A study of Mus musculus with 6 samples.

Results

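A set of 9 genes of late thymocyte maturation and thymic egress was compared between Bach2 knockout and wildtype CD4 single-positive thymocytes of the mouse, with 3 arrays of each genotype. The 9 were S1pr1, Klf2, Klf3, Cd69, Cd24a, Foxo1, Foxp1, Gpr183 and Sox4, of 19938 genes tested. They were taken by name, each from its probe set with a single gene symbol, and each had exactly 1 such probe set. Bach2 is a basic leucine zipper protein that represses transcription. The hosts were lethally irradiated male Rag1 knockout mice, aged 8 weeks, which cannot make T or B cells of their own and keep their radioresistant thymic stroma. They were given an equal mixture of lineage-depleted marrow from male donors, also aged 8 weeks, that were either Bach2 knockout (Ly5.1-) or wildtype (Ly5.1+), on a C57BL/6 background. After 2 months the CD4 single-positive thymocytes of each genotype were sorted by Ly5.1, a form of the surface protein CD45, so that all cells of both groups had matured in mixed chimeras. Per the design text each sample came from a separate mouse. The kind of Bach2 deletion is not stated in the labels, and the Ly5.1 allele differs together with the genotype.

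A newly selected single-positive thymocyte is retained in the medulla and carries CD69 and CD24 on its surface. As it matures it loses both, while Foxo1 drives Klf2 and Klf2 drives S1pr1, the receptor through which the cell senses sphingosine 1-phosphate in blood and leaves the thymus. CD69 opposes exit by binding the S1pr1 protein and pulling it from the cell surface.

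Of the 9 genes, Gpr183 was higher in knockout cells and the remaining 8 did not pass the test. Gpr183, a receptor for oxysterols that guides lymphocyte positioning, was 1.76-fold higher, a difference of 0.81 ± 0.11 in log2 units (adjusted p = 0.00754; errors of differences are limma's standard errors throughout). That 1 of 9 genes passed stands against 0.567% of all genes tested in either direction, and 0.351% in the upward direction. The threshold was an adjusted p of 0.05, by limma with Benjamini-Hochberg adjustment over all 19938 genes. Of the other members Cd69 had a difference above 0 and 7 had one below 0. For 6 of the 9 the 3 knockout values and the 3 wildtype values did not overlap (Gpr183 higher, and Cd24a, Sox4, Foxo1, Klf3 and Klf2 lower), against 11.7% of all genes, 5.13% in the upward and 6.57% in the downward direction. The same 6 had an unadjusted p under 0.05, against 6.91% of all genes, 3.04% upward and 3.87% downward. The median difference was -0.23 over the 9 members and -0.01 over all genes tested. These members were chosen with earlier results of the same arrays known, so that the counts describe them and are no independent evidence.

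**Figure D1:**
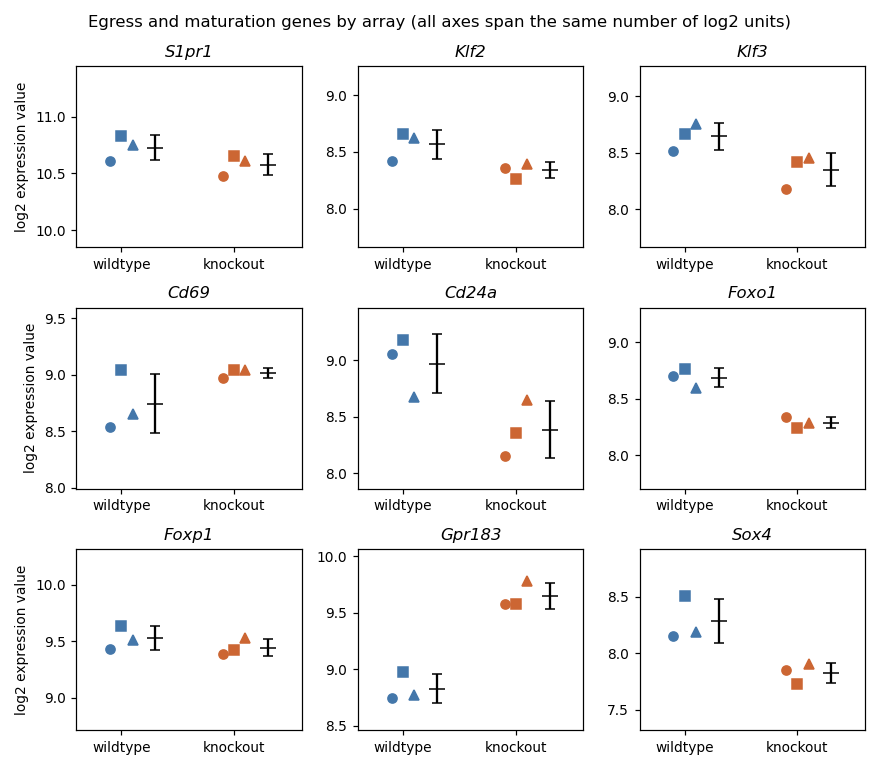
Log2 expression values of the 9 genes on each of the 6 arrays, with replicates 1, 2 and 3 as circles, squares and triangles, wildtype in blue and knockout in orange. Bars give the mean and SD of 3 arrays, and all panels span the same number of log2 units around a centre of their own, so heights compare within a panel only. The 3 knockout values of Gpr183 (9.58 to 9.78) lie above all wildtype values (8.74 to 8.97), and those of Foxo1 and Sox4 lie below.

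Values are deposited log2 expression values, 1 per probe set and array, and the level of 1 gene cannot be set against that of another on this scale. All 9 members were well above the array medians of 4.93 to 4.97: the lowest member value on any array was 7.73. Arrays correlated at 0.981 to 0.991 within a genotype and at 0.984 to 0.989 between genotypes across all 35556 probe sets (Pearson's r, a description over probe sets that are not independent). Bach2 itself was at 7.89, 8.20 and 8.05 in wildtype and at 6.50, 6.42 and 6.52 in knockout replicates 1 to 3, and its fall passed the test (adjusted p = 0.000156). Cd4 lay between 10.33 and 10.43 on all 6 arrays, and Zbtb7b, which directs the CD4 lineage, between 8.95 and 9.13. Transcripts of the co-receptor CD8 were not at the floor: Cd8a was at 7.67 to 7.90 on 5 arrays and at 8.90 on knockout replicate 3.

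Promoter sequences are shown for 3 members, Gpr183 because it passed the test, Foxo1 because its 2 groups were the farthest apart among the lower members, and Klf3 because its window held the most matches to a motif. They are the 250 bases before the annotated start, 5′ to 3′ on the gene's strand, from RefSeq, build GRCm38.p6. Gpr183 is read from chr14:121965194-121965443 on the minus strand, Foxo1 from chr3:52268087-52268336 on the plus strand and Klf3 from chr5:64803271-64803520 on the plus strand. Capitals mark CACCC or its reverse complement.
Gpr183: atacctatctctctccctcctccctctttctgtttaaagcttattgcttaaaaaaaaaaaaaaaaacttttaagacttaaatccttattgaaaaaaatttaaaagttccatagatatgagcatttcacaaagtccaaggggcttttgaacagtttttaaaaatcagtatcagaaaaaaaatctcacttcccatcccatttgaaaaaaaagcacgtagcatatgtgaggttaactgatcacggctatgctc
Foxo1: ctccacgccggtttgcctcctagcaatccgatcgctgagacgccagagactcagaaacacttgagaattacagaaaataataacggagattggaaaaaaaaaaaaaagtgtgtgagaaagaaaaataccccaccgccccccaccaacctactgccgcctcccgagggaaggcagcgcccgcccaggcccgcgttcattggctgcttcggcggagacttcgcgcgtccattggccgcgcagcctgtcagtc
Klf3: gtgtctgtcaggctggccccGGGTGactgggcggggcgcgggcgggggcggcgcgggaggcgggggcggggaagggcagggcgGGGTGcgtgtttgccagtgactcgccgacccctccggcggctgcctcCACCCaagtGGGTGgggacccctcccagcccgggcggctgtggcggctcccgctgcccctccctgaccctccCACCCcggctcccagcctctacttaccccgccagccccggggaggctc

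Of the 9 genes, 6 had a promoter window in the RefSeq table, 8 windows in all since Foxp1 had 3. Windows of 300 bases, which add 50 bases after the start to those printed, were searched on both strands for TGANTCA (the core shared by AP-1 and Bach factors, N being any base), GTAAACA (forkhead factors) and CACCC (Krüppel-like factors). TGANTCA and GTAAACA had 0 matches in the 8 windows, where 7.81% and 3.65% of all 32851 promoter windows hold one. CACCC was found 5 times in the Klf3 window, 1 time in that of Klf2 and in 2 of the 3 Foxp1 windows, and 57.5% of all windows hold it. It had 0 matches in the Gpr183, Foxo1 and Sox4 windows. The Gpr183 bases shown are 32.0% G or C, which is lower than in all but 2.38% of windows, against 78.4% for Klf3 and a median of 52.4%. These letters describe the windows alone.

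Gpr183 was at 8.74, 8.97 and 8.77 in wildtype replicates 1 to 3 and at 9.58, 9.58 and 9.78 in knockout replicates 1 to 3. The lowest knockout value was 0.60 above the highest wildtype value, the widest such gap among the 9 genes. The mean rose from 8.83 ± 0.13 to 9.64 ± 0.11 (SD, n = 3 each). The 95% interval of the difference ran from 0.58 to 1.05, and the gene ranked 44th by p among all genes tested. Without wildtype replicate 3 the difference was 0.79 but the adjusted p was 0.0611. With all 35556 probe sets in the fit the adjusted p was 0.109, and without moderation of the variances it was 0.320. In the RefSeq table Gpr183 lies within the span of Ubac2, and Gpr18, a receptor of the same class, is a neighbour there. Ubac2 differed by -0.18 (adjusted p = 0.862) and Gpr18 by -0.12 (adjusted p = 0.953), a pair named after their values were seen. None of the 9 members lies on the chromosome of Bach2 or on that of Ptprc, the gene of the Ly5.1 allele, in the same table.

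The genes whose values followed Gpr183 most closely over the 6 arrays were Il7r (Pearson's r = 0.998) and St3gal2 (r = 0.996), of 10613 genes with a mean above the median of all values. These are descriptions over 6 points that include the genotype difference itself. Il7r, the alpha chain of the receptor for interleukin 7, was at 10.59, 10.78 and 10.64 in wildtype and at 11.12, 11.13 and 11.22 in knockout replicates 1 to 3. Its groups did not overlap, and its difference of 0.49 did not pass the test (adjusted p = 0.0706). St3gal2, a sialyltransferase, differed by 0.50 (adjusted p = 0.0675). Of the 5 enzymes that make or break down oxysterol ligands of Gpr183, 0 passed the test by limma and 2 had an unadjusted p under 0.05. Ch25h, the cholesterol hydroxylase that begins ligand synthesis, differed by -0.26 (adjusted p = 0.544), with values of 2.51 to 2.93 that lay below the array medians. Hsd3b7, which breaks the ligand down, differed by 0.22 (adjusted p = 0.636), with values of 4.30 to 4.58, also below the medians.

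The egress receptor S1pr1 was at 10.61, 10.83 and 10.75 in wildtype and at 10.48, 10.65 and 10.61 in knockout replicates 1 to 3. The groups overlapped, since wildtype replicate 1 lay below knockout replicate 2. The difference was -0.15 ± 0.10 (adjusted p = 0.907), and its 95% interval ran from -0.38 to 0.07. Klf2, the activator of S1pr1, was at 8.42, 8.66 and 8.62 in wildtype and at 8.36, 8.26 and 8.40 in knockout cells. All knockout values lay below the wildtype values, but by only 0.03 at the nearest point. The difference was -0.23 ± 0.10 and did not pass the test (adjusted p = 0.711).

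Foxo1, the forkhead factor upstream of Klf2 that also maintains Il7r in resting T cells, was at 8.70, 8.77 and 8.60 in wildtype. In knockout cells it was at 8.34, 8.25 and 8.29. The groups were 0.26 apart, and each varied little, with an SD of 0.08 in wildtype and 0.05 in knockout cells. The difference of -0.40 ± 0.09 (95% interval -0.60 to -0.19) did not pass over all genes (adjusted p = 0.150). It passed in 1 of 16 alternative fits, that with a variance prior following mean expression (adjusted p = 0.0407). In bulk RNA a lower share of cells that express a gene cannot be told apart from less RNA per cell.

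Klf3, a repressor of the same zinc finger family as Klf2, was at 8.52, 8.67 and 8.75 in wildtype and at 8.18, 8.42 and 8.46 in knockout replicates 1 to 3. The groups were 0.06 apart, and the difference was -0.29 ± 0.11 (adjusted p = 0.579). Of 17 Krüppel-like factors measured, 0 passed the test by limma, and the median difference was -0.07. At an unadjusted p under 0.05, 2 were higher and 3 lower, against 3.04% and 3.87% of all genes. The 3 lower were Klf2 and Klf3 themselves and Klf7. Several of the 17, such as Klf8 and Klf12, lay below the array medians. The members with the smallest p were Klf6, at 7.21 to 7.71 in wildtype and 7.79 to 8.27 in knockout cells (difference 0.51, adjusted p = 0.410), and Klf4, which differed by 0.36 (adjusted p = 0.448). Klf2 and Klf3 thus lay on the opposite side of 0 from Klf6 and Klf4, with 0 of these 4 differences past the test.

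Cd69, the early activation antigen that retains cells in the thymus, was at 8.54, 9.04 and 8.65 in wildtype and at 8.97, 9.04 and 9.04 in knockout replicates 1 to 3. The groups overlapped because wildtype replicate 2 reached the knockout level. The difference was 0.28 ± 0.13 (adjusted p = 0.764). Without wildtype replicate 2 it was 0.42 (adjusted p = 0.132), and without wildtype replicate 1 it was 0.17 (adjusted p = 0.937).

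Cd24a, which encodes the surface antigen lost as thymocytes mature, had the largest difference below 0. It was at 9.06, 9.18 and 8.68 in wildtype and at 8.15, 8.36 and 8.65 in knockout replicates 1 to 3. Wildtype replicate 3 and knockout replicate 3 were only 0.02 apart. The difference was -0.58 ± 0.16 and did not pass the test (adjusted p = 0.264). Knockout replicate 3, the highest of the knockout arrays for Cd24a, was also the highest of all arrays for the mean of 9 measured double-positive thymocyte markers, at 7.62 against 6.63 and 7.10 on knockout replicates 1 and 2. Among the wildtype arrays, replicate 3 was instead the lowest for Cd24a and the highest for that mean, at 6.70 against 6.45 and 6.69. Double-positive thymocytes express Cd24a, and their part in the Cd24a values was not tested. Without knockout replicate 3 the Cd24a difference was -0.72 (adjusted p = 0.196).

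Sox4, a transcription factor of the high mobility group class that is high in immature thymocytes, was at 8.16, 8.51 and 8.19 in wildtype and at 7.85, 7.73 and 7.90 in knockout replicates 1 to 3. The groups were 0.25 apart. The difference was -0.46 ± 0.12 (95% interval -0.72 to -0.20), 1.37-fold lower, and did not pass (adjusted p = 0.209). Of 19 Sox genes measured, 0 passed the test by limma, against 0.567% of all genes. At an unadjusted p under 0.05, 2 were lower, Sox4 and Sox13 (difference -0.27, adjusted p = 0.514), against 3.87% of all genes. The median difference of the 19 was -0.02, but several of them, such as Sox2 and Sox11, lay below the array medians.

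Foxp1, a forkhead factor that keeps naive T cells quiescent, was at 9.43, 9.64 and 9.52 in wildtype and at 9.39, 9.42 and 9.53 in knockout cells. The groups overlapped, and the difference was -0.08 ± 0.10 (95% interval -0.30 to 0.14, adjusted p = 0.983). Among 8 forkhead O and P genes, 1 passed the test. This was Foxp3, the defining factor of regulatory T cells, which fell by 2.43 (adjusted p = 0.00148). Foxo4 differed by 0.12 (adjusted p = 0.950), and the median difference of the 8 genes was -0.06.

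**Figure D2:**
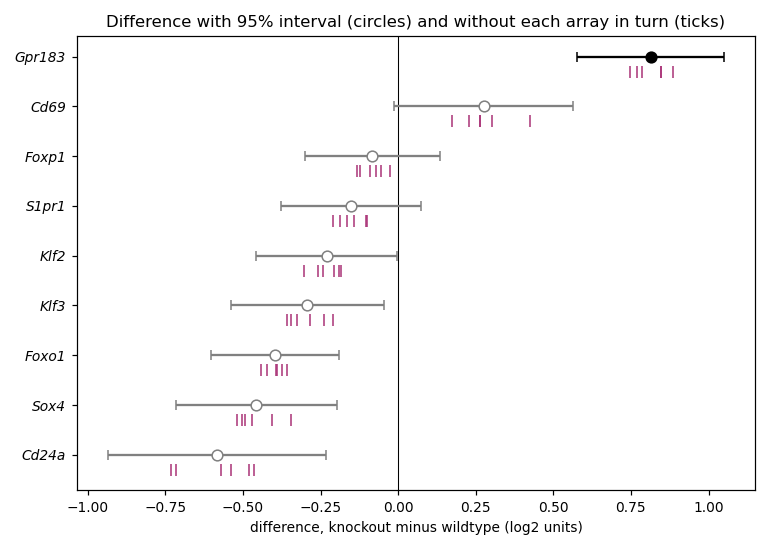
Differences of the 9 genes, knockout minus wildtype, in log2 units. Circles give the fit to all 6 arrays with its 95% interval, filled where the adjusted p was under 0.05, and ticks give the differences with each array left out in turn. Gpr183 keeps to 0.75 to 0.89 without each array, and all ticks of a gene lie on the same side of 0.

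The sphingosine 1-phosphate axis was read from 20 measured genes (receptors, S1pr1 among them, kinases, the lyase, transporters and the signalling parts that drive migration). Of these, 0 passed the test by limma and 1 had an unadjusted p under 0.05, against 0.567% and 6.91% of all genes. The median difference of the 20 was -0.0045 and their differences ran from -0.23 to 0.21. Their median absolute difference was 0.06, against 0.08 over all genes. Several, such as S1pr3 and Sphk1, lay below the array medians. The smallest p values belonged to Plpp3, a phosphatase of lipid phosphates (difference 0.21, adjusted p = 0.723, values below the array medians), and Gna13, a G protein subunit (difference -0.23, adjusted p = 0.756). Among 11 other homing receptors and adhesion genes of maturing thymocytes, 1 rose and 0 fell, against 0.351% and 0.216% of all genes. At an unadjusted p under 0.05, 4 were higher and 0 lower, against 3.04% and 3.87% of all genes, and the median difference was 0.12. The rise was in Ccr4, a chemokine receptor of cells newly arrived in the medulla, which was at 9.07, 9.16 and 8.96 in wildtype and at 10.61, 10.76 and 10.77 in knockout replicates 1 to 3 (difference 1.65 ± 0.10, adjusted p = 8.07e-05). Ptger4, a receptor for prostaglandin E, was at 8.55 to 8.68 in wildtype and 8.88 to 9.08 in knockout cells (difference 0.40, adjusted p = 0.178).

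Stage genes lay on both sides of 0. The lists here were chosen with earlier results of the same arrays known, so the counts are no independent evidence. Of all genes tested, 0.351% rose and 0.216% fell, and 3.04% were higher and 3.87% lower at an unadjusted p under 0.05. Of 18 semi-mature stage genes, Cd69, Cd24a and Sox4 among them, 1 rose and 0 fell. The rise was that of Ccr4, already counted among the homing receptors. At an unadjusted p under 0.05, 4 of the 18 were higher and 3 lower, and the median difference was 0.02. Nr4a1, an orphan nuclear receptor induced by T cell receptor signals, was at 9.16 to 9.34 in wildtype and at 8.63 to 8.87 in knockout cells (difference -0.50, adjusted p = 0.0932). Of 16 measured mature stage genes, S1pr1, Klf2 and Klf3 among them, 3 fell and 0 rose, with 5 lower and 3 higher at an unadjusted p under 0.05 and a median difference of -0.03. The falls were in Cd55, an inhibitor of complement (-2.07 ± 0.15, adjusted p = 0.000208), Dapl1 (-1.92 ± 0.27, adjusted p = 0.0128) and Igfbp4, which binds insulin-like growth factors (-0.96 ± 0.14, adjusted p = 0.0136). Dapl1 missed the threshold without knockout replicate 2 (adjusted p = 0.0547). Of 9 measured genes taken as targets of Foxo1 or Klf2, 1 fell and 0 rose, with a median difference of -0.15. The fall was in Pik3ip1, an inhibitor of phosphatidylinositol 3-kinase, which was at 7.84, 7.90 and 7.84 in wildtype and at 7.19, 7.20 and 7.14 in knockout replicates 1 to 3 (difference -0.69 ± 0.09, adjusted p = 0.00702). Ctla4, an inhibitory receptor that regulatory T cells hold at high levels, differed by -1.09 (adjusted p = 0.0568), whereas Il7r lay above 0.

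**Figure D3:**
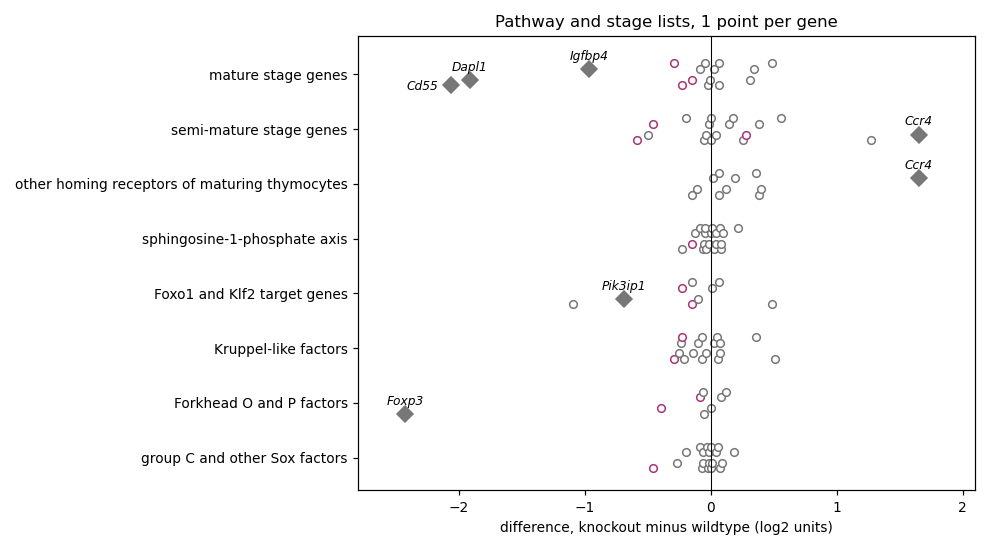
Differences, knockout minus wildtype, in log2 units for 8 lists of genes, with 1 point per measured gene. Filled diamonds are genes with an adjusted p under 0.05 and are named, and genes of the 9 described here are in purple. Most points lie near 0, and the named genes fall on both sides of it, from Foxp3 at -2.43 to Ccr4 at 1.65. Gpr183 is in none of these lists.

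Regulatory T cell markers were lower in knockout cells beside these genes. The mean over 9 measured T cell identity genes was 10.66 to 10.72 in wildtype and 10.59 to 10.69 in knockout arrays, with 0 past the test by limma and 0 at an unadjusted p under 0.05. The identity gene Thy1 stood apart on a single array, with 10.45 for knockout replicate 1 against 11.40 to 11.61 elsewhere (difference -0.45, adjusted p = 0.822). The mean over 8 regulatory T cell markers was 7.83 to 8.59 in wildtype and 6.93 to 7.12 in knockout arrays, and 4 of the 8 fell (Foxp3, Ikzf2, Lrrc32 and Il2ra). With each array left out in turn Foxp3 passed in all 6 fits, Ikzf2 in 5, Lrrc32 in 4 and Il2ra in 1, with the highest adjusted p of each without wildtype replicate 3 (0.0135, 0.0617, 0.0657 and 0.133). Over 9 double-positive thymocyte markers it was 6.45 to 6.70 and 6.63 to 7.62, with 0 past the test by limma, 4 higher at an unadjusted p under 0.05 and all 9 differences above 0. The means for CD8 T cell markers were 7.07 to 7.43 and 6.58 to 7.06 (6 genes), and those for natural killer T cell markers 5.57 to 5.66 and 5.32 to 5.39 (5 genes). By limma 0 of either list passed, with 4 and 2 lower at an unadjusted p under 0.05. The 4 lower CD8 T cell markers were Itgae, Eomes, Runx3 and Nkg7. Cd8a and Cd8b1, which are also counted among the double-positive markers, lay above 0 (differences 0.37 and 0.13). Of 2 erythroid and 7 thymic stroma genes, 0 passed by limma and 0 had an unadjusted p under 0.05, and the means of both lists overlapped between the groups.

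For Gpr183, which B cells, macrophages and dendritic cells also express, the B cell markers overlapped between the groups (4.04 to 4.36 in wildtype and 4.28 to 4.36 in knockout arrays, 6 genes). The macrophage and dendritic cell markers, 8 genes, had means of 4.32, 4.32 and 4.41 in wildtype and of 4.81, 4.52 and 4.39 in knockout replicates 1 to 3, and 1 of them, Lyz2, rose. Lyz2 was at 5.68, 4.97 and 5.22 in wildtype and at 7.03, 6.82 and 6.17 in knockout replicates 1 to 3. Its difference was 1.39 (adjusted p = 0.0256 by limma), and its groups did not overlap. At an unadjusted p under 0.05, 1 was higher and 1 lower. The lower was Itgam, at 4.18 to 4.56 in wildtype and 3.89 to 4.09 in knockout cells (difference -0.33, adjusted p = 0.528). With each array left out Lyz2 passed in 2 of 6 fits, with an adjusted p of up to 0.153 without wildtype replicate 3. All 6 means of this list lay below the array medians, but Lyz2 and Cd68 themselves lay above them on every array. Cd68 was at 5.62 to 6.25 in wildtype and at 5.88 to 6.80 in knockout cells (difference 0.31, adjusted p = 0.932). The part of the regulatory T cell, double-positive and other markers in the 9 genes' differences was not tested.

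**Figure D4:**
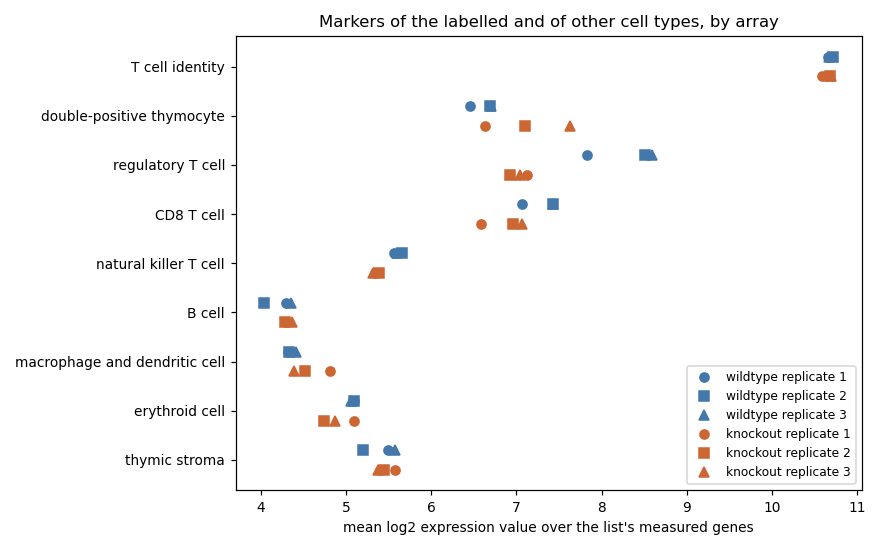
Mean log2 expression value over the measured genes of each marker list, by array, with wildtype in blue and knockout in orange and replicates 1, 2 and 3 as circles, squares and triangles. T cell identity genes lie together at 10.59 to 10.72, regulatory T cell markers are lower on all knockout arrays, and double-positive markers are highest on knockout replicate 3.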

How the data were processed

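RNA of sorted CD4 single-positive thymocytes was measured on 6 arrays, 3 wildtype and 3 Bach2 knockout, grouped by the labels' titles. The deposited log2 values, 1 per probe set and array, were made by the authors with RMA (robust multi-array average) and Partek, per the submitters' processing notes, which give no versions. The log2 scale was read from the values (1.10 to 13.2). The labels name no genome build or detection call. Because RMA equalises the arrays' distributions, a change shared by all genes is invisible. Arrays have no read depth, and their number limits the precision.

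Symbols were read from the platform annotation. Of 35556 probe sets, 21789 had 1 symbol, 1621 several and 12146 none listed. Each gene was read from its single-symbol probe set with the highest mean, giving 19938 genes, of which 19855 matched a RefSeq table (GRCm38.p6) by gene number, all 9 members included. The two-sided test was limma's moderated linear model (version 3.58.1, lmFit and eBayes, R 4.3.3), Benjamini-Hochberg adjusted over all genes. The fit was tested on simulated data. Named genes were the 9 members, Bach2, and from each list other than those of cell type markers the genes past the test and those with the smallest p. From the marker lists these were the genes past the test and others picked to describe the cells. Il7r and St3gal2 were named for their likeness to Gpr183, and Ubac2 and Gpr18 as its neighbours. The members, lists and alternatives were chosen with earlier results of these data known. The 3 same-numbered pairs of arrays had deviations from their group means that correlated at 0.21, 0.11 and -0.07, so the numbers were not taken to pair them. Alternatives were other variance priors, no moderation, no dim genes, other scalings, array weights, averaged or all probe sets, a replicate block and each array left out. Plots were made in Python 3.11.15 with matplotlib 3.10.9.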

Additional observations from a re-analysis of the deposited data

How the results depend on the processing

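The 9 genes kept their direction in all 16 alternatives, and of 144 gene and alternative pairs 140 stayed on the same side of the threshold. Direction could change only with other scalings, array weights or an array left out. The other alternatives left each member's difference as it was and changed only its error or its adjusted p. Gpr183 lost its call without moderation, with all probe sets and without wildtype replicate 3, and Foxo1 gained one with a prior following expression. Members called higher were 0 without moderation and 0 with all probe sets, and 0 to 1 with each array left out. Members called lower were 0, and 1 with the prior following expression. Over all genes 70 were called higher and 43 lower. These were 1 and 0 without moderation (572 and 708 at an unadjusted p under 0.05), 29 and 8 with all 35556 probe sets, and 29 to 82 and 18 to 66 with each array left out, fewest without wildtype replicate 3. The prior following expression called 78 lower. The cause of these shifts was not tested. With the replicate block Gpr183 had an adjusted p of 0.0163, and 79 genes were called higher and 55 lower. The block changed no member's call. Not every array correlated best with its own number. With 3 arrays per group, the 95% interval spanned 0 for S1pr1, Foxp1 and Cd69.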
